A study of Mus musculus with 300 samples.

Results

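In the embryonic mouse thymus, 89 single cells carried high transcript levels of both Kit and Cd34, namely 22 of the 67 analysed cells of mouse 1A, 24 of 69 of 1B, 19 of 64 of 2A and 24 of 61 of 2B. They were chosen by measured values: the deposited log2 value of each of these genes had to exceed its median over all analysed cells, which was 8.28 for Kit and 8.67 for Cd34. These cells are called Kit-high Cd34-high cells. The other cells comprised 41 above the median of Kit only, 41 above that of Cd34 only and 90 above neither. The study applied plate-based single-cell RNA sequencing to early thymic progenitors (ETPs) of E15.5 embryos. Every cell carried the same genotype, that of the 5x polychromILC strain, whose reporter genes include those for Bcl11b, Id2, Rora and Gata3, and no treatment or control genotype was labelled. The sources used here state neither the sort gate nor how many embryos share a mouse id.

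Kit encodes the receptor tyrosine kinase for stem cell factor, and Cd34 encodes a sialomucin on the surface of haematopoietic stem and progenitor cells. Progenitors that enter the thymus express both, and they still keep myeloid, dendritic, natural killer (NK) and innate lymphoid potential. Under Notch signalling they lose Flt3 and other progenitor genes, gain Tcf7, Gata3 and Il2ra, and commit to the T lineage when Bcl11b is switched on.

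The sequences upstream of Kit, Cd34 and Kcnn4 are shown because the first 2 genes chose the cells and Kcnn4, a potassium channel gene, was among the genes that differed most between these cells and the others. They are RefSeq windows of GRCm38.p6, on the plus strand, and end before the start of each gene in GENCODE M21. Kit is on chromosome 5 (gene at 75574916 to 75656722), Cd34 on chromosome 1 (194938819 to 194961279) and Kcnn4 on chromosome 7 (24370263 to 24386690).
Kit, chr5:75574737-75574915: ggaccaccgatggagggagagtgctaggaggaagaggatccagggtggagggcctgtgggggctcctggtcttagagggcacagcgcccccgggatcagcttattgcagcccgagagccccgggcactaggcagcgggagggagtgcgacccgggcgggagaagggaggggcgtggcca
Cd34, chr1:194938571-194938818: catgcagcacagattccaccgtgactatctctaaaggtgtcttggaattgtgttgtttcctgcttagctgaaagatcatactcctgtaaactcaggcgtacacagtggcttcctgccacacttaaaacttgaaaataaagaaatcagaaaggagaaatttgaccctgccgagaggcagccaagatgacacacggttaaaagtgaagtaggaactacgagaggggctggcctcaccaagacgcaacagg
Kcnn4, chr7:24370013-24370262: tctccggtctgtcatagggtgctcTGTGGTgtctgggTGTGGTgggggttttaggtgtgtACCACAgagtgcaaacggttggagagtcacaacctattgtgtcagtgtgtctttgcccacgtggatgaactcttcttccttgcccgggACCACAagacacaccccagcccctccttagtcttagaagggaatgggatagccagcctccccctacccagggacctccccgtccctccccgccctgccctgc
Capitals mark matches on either strand to TGTGGT, core letters of the sites of Runx factors. The Kcnn4 window held 4 such matches, and 14% of 32851 promoter windows of 250 bases held at least 1. Letters of 3 other factor families were searched on both strands as well: AGATAA of the Gata family, in 9.99% of windows, GGAAGT of the Ets family, in 19.7%, and CAGCTG of the E proteins, in 13%. None of the 4 motifs was found in these letters of Kit or Cd34. None was found either in the windows searched for Mycn and Adgrg1, genes that differed more than Kcnn4. Those windows are not upstream of the genes as annotated in GENCODE M21. The Adgrg1 windows lay inside the gene and the Mycn window overlapped it. A match in Kcnn4 is a letter match only. No binding data bear on these windows.

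Kit and Cd34 themselves describe the choice of cells and were not tested. Kit had mean log2 levels of 9.18, 8.99, 9.02 and 9.03 in the Kit-high Cd34-high cells of mice 1A, 1B, 2A and 2B, against 5.36, 5.91, 5.63 and 6.55 in the other cells. Cd34 had 10.20, 9.86, 9.64 and 10.03 against 5.16, 6.13, 5.65 and 6.01. At the threshold, the nearest Kit values were 8.30, 8.30 and 8.32 inside and 8.25, 8.22 and 8.21 outside, and the nearest Cd34 values were 8.73, 8.73 and 8.73 inside and 8.67, 8.6 and 8.55 outside. The Kit cut passed through a dense part of the distribution: 31 of the 89 cells lay within 0.5 of the Kit median and 11 within 0.5 of the Cd34 median. By these genes the chosen cells adjoin the cells below each cut, and whether they form a cluster over all genes was not tested.

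**Figure D1:**
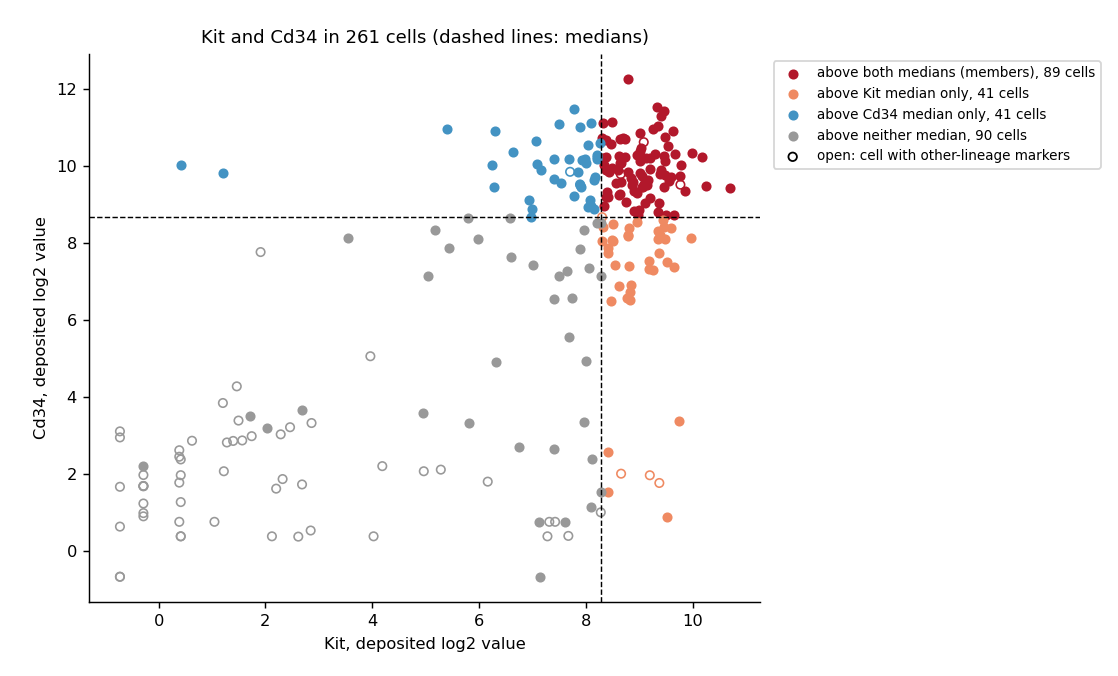
Deposited log2 values of Kit (x axis) and Cd34 (y axis) in all analysed cells; each point is a cell, colour gives its side of the medians (dashed lines at 8.28 and 8.67), and open points are cells with markers of other lineages. The 89 Kit-high Cd34-high cells adjoin the 41 Kit-only and 41 Cd34-only cells, whereas most open points lie among the 90 cells above neither median.

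The chosen cells made up a similar share of each mouse. They were 32.8% of the cells of mouse 1A (exact 95% Clopper-Pearson interval 21.8 to 45.4%), 34.8% of 1B (23.7 to 47.2%), 29.7% of 2A (18.9 to 42.4%) and 39.3% of 2B (27.1 to 52.7%), or 34.2 ± 4.04% (SD, n = 4). By plate they were 34.5% of AF1, 29.6% of AF2, 35.2% of JW7 and 44% of JW8, with intervals that overlap. These intervals cover counting error only. Nfe2, Pdgfrb and Mycn were given as other markers of these cells with earlier results of these data known. Their detection is therefore a description and no separate support for the name. In the chosen cells Nfe2 and Pdgfrb were detected in 89 of 89 and Mycn in 88. Of the 41 Cd34-only cells Nfe2, Pdgfrb and Mycn were detected in 41, 40 and 40, and of all other cells in 88.4%, 80.2% and 84.9%.

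Depth and cell types differed between the compared cells. The matrix gives no read counts, so depth is stated as detected genes, of which the Kit-high Cd34-high cells had a median of 8107 (6832 to 9632) and the other cells 7501 (5073 to 10337). Within mice the difference of the means was 633 ± 271.1 genes (SD, n = 4), higher in 4 of 4 mice (exact two-sided sign-flip permutation p = 0.13, the smallest p that 4 mice allow). The mitochondrial share was 0.436 ± 0.256 percentage points higher, also in 4 of 4 mice (exact permutation p = 0.13). Cells with markers of dendritic cells (24), NK or innate lymphoid cells (25), mast cells or basophils (11) or macrophages (8) numbered 63 in all, since some met 2 definitions. Of these 63 cells, 53 lay among the cells above neither median, 4 among the Kit-high Cd34-high cells, 4 among the Kit-only and 2 among the Cd34-only cells. With them left out of the other cells the difference in detected genes was 266.96 ± 134.5, and that in the mitochondrial share was -0.0043 ± 0.302 percentage points, higher in 2 of 4 mice.

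Kit-high Cd34-high cells had more transcripts of many genes than the other cells, progenitor genes among them. The differences were largest for the receptor gene Pdgfrb and the transcription factor gene Mycn. Adhesion, cytotoxic and dendritic genes were among those with fewer transcripts. The mean level of Pdgfrb, a receptor tyrosine kinase of the same class as Kit, was 8.67, 8.16, 8.44 and 8.37 in the chosen cells of mice 1A, 1B, 2A and 2B. In the other cells it was 4.31, 4.81, 5.17 and 5.05. The groups did not overlap, and the difference was 3.58 ± 0.52 log2 (SD, n = 4; limma adjusted p = 0.00758). Mycn, a Myc family factor of proliferating progenitors, had 8.50, 7.94, 7.97 and 8.63 against 4.84, 5.18, 5.17 and 5.47. Its difference was 3.09 ± 0.42 (adjusted p = 0.00758) and the groups did not overlap. Adgrg1, an adhesion G protein-coupled receptor of stem and progenitor cells, was uniformly high, with 10.64, 10.67, 10.56 and 10.69 against 7.29, 7.85, 7.52 and 8.22. The difference was 2.92 ± 0.37 (adjusted p = 0.00758).

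Enzyme, channel and surface genes followed. Capn5, a calpain protease gene, differed by 2.88 ± 0.34 (adjusted p = 0.00758), Kcnn4, a calcium-activated potassium channel gene, by 2.84 ± 0.44 (adjusted p = 0.0104) and Slc35d3, of a solute carrier family, by 2.74 ± 0.44 (adjusted p = 0.0119). Kcnn4 levels were 7.82, 8.04, 8.1 and 8.0 against 4.35, 5.54, 5.30 and 5.42. Dnmt3b, a de novo DNA methyltransferase gene, was higher by 2.68 ± 0.66 (adjusted p = 0.0156). Mpo, the myeloperoxidase gene of granulocyte-monocyte progenitors, was higher by 2.61 ± 0.66 (adjusted p = 0.0156), with 9.06, 9.15, 8.29 and 8.51 against 5.91, 6.05, 6.56 and 6.06. The other 4 of the 12 genes with the largest rise, Afap1l1, Serpinb1a, Ass1 and Cd81, differed by 2.51 to 3.06, with adjusted p = 0.0127 to 0.0206. For these 12 genes the means of the chosen and the other cells did not overlap, and over all genes tested 23.3% had such non-overlapping means with the chosen cells higher.

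Among the genes that were lower, Cdh1, which encodes the adhesion molecule E-cadherin, led. Its mean level was 1.36, 0.47, 0.64 and 0.58 in the chosen cells against 3.92, 2.92, 2.98 and 3.18, so that every mouse showed nearly the same gap (-2.49 ± 0.12, adjusted p = 0.00758). Gzma, the granzyme A gene of cytotoxic cells, had 1.30, 1.22, 2.62 and 2.09 against 4.14, 3.88, 4.92 and 3.66 (-2.34 ± 0.56, adjusted p = 0.0156). Atp1b1, a sodium-potassium pump subunit gene (-2.28 ± 1.14), and Fcer1g, an Fc receptor signalling chain gene of NK and myeloid cells (-1.97 ± 1.07), varied more between mice. Cd74, the MHC class II invariant chain gene (-1.80 ± 0.50), and Irf8, a factor of dendritic cells (-1.78 ± 0.51), were lower in 4 of 4 mice with adjusted p = 0.0185 each. The other 6 of the 12 genes with the largest fall, Gas7, Hvcn1, Ahnak, Adgre5, Lgals3 and Itm2c, differed by -1.94 to -1.69 (adjusted p = 0.0185 to 0.0374). Their means did not overlap, as for 2.56% of all genes tested in this direction.

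**Figure D2:**
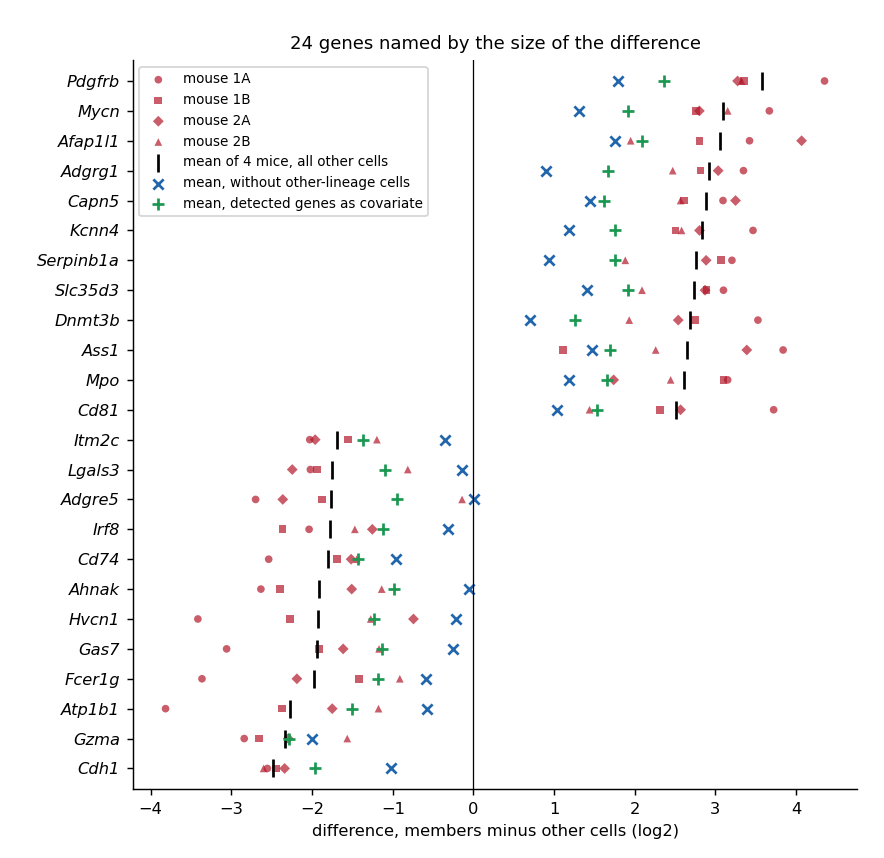
Difference of the mean log2 value, Kit-high Cd34-high cells minus other cells (x axis), for the 24 named genes (y axis); red points are the 4 mice, bars their mean, green crosses the mean with detected genes as covariate and blue crosses the mean without cells of other lineages. The differences of genes such as Pdgfrb (3.58) shrink to 2.36 and 1.79 and keep their sign, whereas Adgre5 lies at 0.01 without those cells.

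In all, 1539 of 12437 genes tested were higher (12.4%) and 92 lower (0.74%) in the Kit-high Cd34-high cells, 13.1% in either direction, and the median gene was 0.35 higher. The calls did not hold in other settings: limma called 0 genes with detected genes as covariate (1462 at unadjusted p under 0.05), 0 without cells of other lineages (1427) and 0 without the first 8 wells of each set of cells that share exact values (3285). Of the 1631 genes, 1630 kept their sign with the covariate and 1598 without cells of other lineages, and their median absolute difference went from 1.21 to 0.63 and 0.60. The count was also 0 without mouse 2A (3152 at unadjusted p under 0.05), 6 without 1A, 326 without 1B and 677 without 2B, and most cells of 2A and of 2B lie in the same 2 sets. Without the first 8 wells and without mouse 2A the 1631 genes kept their sign, and their median absolute difference was 1.07 and 1.19. With plate as covariate 1672 genes were called. The part of depth and of the other cell types in these differences was not tested. Because an id may stand for 1 embryo or several, each p measures only the spread between these labelled mice.

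Most of the contrast lay between the cells above a median and those above neither. For the 12 genes with the largest rise, the cells above neither median had the lowest mean of the 4 groups in 12 of 12, with a median level of 3.14. The same held for 1482 of the 1539 genes called higher. The median level was 8.13 in Kit-high Cd34-high cells, 7.58 in Cd34-only and 6.93 in Kit-only cells. Mycn illustrates the order, with 8.26 ± 0.36 in Kit-high Cd34-high, 7.44 ± 0.26 in Cd34-only, 7.37 ± 1.04 in Kit-only and 3.10 ± 0.59 in cells above neither (SD, n = 4 mice each). Of the 12 genes with the largest fall, 12 were highest in the cells above neither median, with a median level of 4.55. Cd34-only cells were lowest in 6 of them, Kit-high Cd34-high cells in 5 and Kit-only cells in 1. Their median levels were 0.95, 1.14 and 1.83, so low levels of these genes were not particular to the chosen cells.

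Many stem and progenitor transcription factor genes were higher. The gene lists here and below were chosen with earlier results of these data known, so their counts and medians are a description. Of the 24 tested of 27 genes, 16 passed higher and 0 lower (12.4% and 0.74% of all genes), and their median difference was 1.31 against 0.35 over all genes. Nfe2, which encodes a subunit of the NF-E2 factor of megakaryocyte and erythroid cells, had 8.22, 7.92, 7.61 and 7.54 in the chosen cells against 5.24, 5.75, 5.43 and 6.25 (2.15 ± 0.69, adjusted p = 0.0185). Myb, needed by definitive haematopoietic progenitors (2.12 ± 0.26), Sox4, an HMG-box factor of lymphoid progenitors (2.05 ± 1.24), and Lyl1, a basic helix-loop-helix factor of early progenitors (1.98 ± 0.18), also passed. The list's median was 0.86 with detected genes as covariate and 0.61 without cells of other lineages, against 0.10 and 0.14 over all genes, and in those settings 22 of 24 genes were positive while 0 passed. Against Cd34-only cells the list's median was 0.18, with 14 genes positive, 10 negative and 0 passing.

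Receptors and their signal chains gave a mixed picture. Of 25 progenitor surface genes, 11 were higher and 0 lower, against 12.4% and 0.74% of all genes, with a median of 0.66. This list, too, was chosen with earlier results of these data known. Beside Pdgfrb, Adgrg1 and Kcnn4 the largest was Cd27, a TNF receptor family member of lymphoid progenitors, with 8.27, 7.95, 7.54 and 7.41 against 5.28, 5.86, 5.35 and 5.58 (2.27 ± 0.50, adjusted p = 0.0156). The list's median was 0.73 with detected genes as covariate and 0.68 without cells of other lineages, and 0 of the 25 genes passed in either setting. Against Cd34-only cells it was 0.16, with 13 genes positive, 12 negative and 0 passing. Of 27 tested genes that act downstream of Kit, 8 passed higher and 0 lower, against 12.4% and 0.74% of all genes (median 0.69). Among them were Plcg1, encoding phospholipase C gamma (2.50 ± 0.49), the STAT5 genes Stat5a (1.89 ± 1.09) and Stat5b (1.59 ± 0.41), and Pik3cg, a phosphoinositide 3-kinase gene (1.32 ± 0.69). With detected genes as covariate this list's median was 0.34, and without cells of other lineages 0.39, with 0 passing in either setting. Over all genes the medians were 0.10 and 0.14. Against Kit-only and Cd34-only cells it was 0.17 each, beside 0.13 and 0.06 over all genes, with 0 passing.

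Fetal and chromatin genes were higher in part, beside 12.4% higher and 0.74% lower over all genes. Of 9 tested genes of the fetal haematopoietic programme, 3 passed higher and 0 lower (median 0.87): Mycn, Igf2bp3, an RNA-binding protein gene (1.02 ± 0.51), and Hmga1, a chromatin protein gene (0.87 ± 0.31). Igf2bp1, of the same family as Igf2bp3, was 1.08 ± 0.94 higher and did not pass (adjusted p = 0.0869). With detected genes as covariate the fetal list's median was 0.36, and without cells of other lineages 0.24, with 0 passing in either setting. Over all genes the medians were 0.10 and 0.14. Against Kit-only and Cd34-only cells it was 0.54 and 0.04, beside 0.13 and 0.06 over all genes, with 0 passing. Of 7 DNA methylation genes, 3 passed higher and 0 lower. They were Dnmt3b, Uhrf1, which guides maintenance methylation (1.49 ± 0.60), and Dnmt1, the maintenance methyltransferase (1.10 ± 0.64).

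T-lineage genes moved in both directions. Of 25 tested T specification genes, 4 passed higher, near the 12.4% of all genes, and 2 lower, beside 0.74%. The median difference was 0.05, below that of all genes. The higher ones included the T-cell receptor beta constant genes Trbc2 (1.65 ± 0.49) and Trbc1 (1.59 ± 0.42), which are near-identical and can share reads, and Lck, the T-cell kinase. Lck was detected in 89 of 89 cells, at 9.59, 9.30, 9.17 and 9.39 against 7.65, 8.42, 8.10 and 7.47 (1.45 ± 0.56, adjusted p = 0.0241). Cd3g, a chain of the CD3 complex, was lower, at 1.02, 0.48, 0.35 and 0.53 against 1.76, 2.70, 2.44 and 1.97 (-1.62 ± 0.68, adjusted p = 0.0233). Cd3e was detected in 3 of the 89 cells (3.37%) and in 8.14% of the other cells. Bcl11b was detected in 4 (4.49%), against 18.6% of the other cells, among them 12 of the 41 Kit-only cells (29.3%) and 4 of the 41 Cd34-only cells. The Kit-only share differed by mouse, at 7.69, 0, 55.6 and 60% in 1A, 1B, 2A and 2B. In the chosen cells it was 0, 0, 15.8 and 4.17%.

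Of 19 tested of 23 Notch pathway genes, 5 passed higher and 0 lower, against 12.4% and 0.74% of all genes. The list's median difference was 0.32, close to the 0.35 over all genes. Notch1, the receptor for thymic Delta-like ligands, showed the most even difference of those named, 9.81, 9.78, 10.11 and 9.49 against 8.53, 8.57, 8.82 and 8.04 (1.31 ± 0.10, adjusted p = 0.0185). Its targets Myc (1.70 ± 0.70) and Nrarp, a feedback inhibitor (1.58 ± 0.64), and the glycosyltransferase gene Mfng, a modifier of Notch receptors (1.45 ± 0.84), passed as well.

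Part of the cell-cycle genes were higher, beside 12.4% higher and 0.74% lower over all genes. Of 40 S phase genes 13 passed higher and 0 lower (median 0.90), led by Cdca7 (2.41 ± 0.42), which acts with Hells in chromatin remodelling, Dtl (1.61 ± 0.49) and Hells (1.60 ± 0.40). Of 53 G2M phase genes 15 passed higher and 0 lower (median 0.78), led by the kinesin gene Kif23 (1.61 ± 0.48) and the B-type cyclin genes Ccnb1 (1.58 ± 1.00) and Ccnb2 (1.47 ± 0.60). With detected genes as covariate the medians were 0.20 and 0.10, with 0.10 over all genes. Without cells of other lineages they were 0.08 and 0.31, with 0.14 over all genes. Mki67 and Top2a, common proliferation markers, reached a linear level of at least 10 in 76.4% and 75.3% of the chosen cells and in 66.3% and 69.8% of the others. In Cd34-only cells these shares were 78% and 85.4%. Against those cells the G2M list had a median of -0.28, with 13 of 53 genes positive and 0 passing, and against Kit-only cells 0.46, with 49 positive and 0 passing.

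Lists of other cell types were mostly at or below the median of all genes, of which 12.4% passed higher and 0.74% lower. Of 14 tested plasmacytoid dendritic genes 0 passed higher and 7 lower (median -1.18), among them Irf8, the B-lymphoid and dendritic factor gene Spib (-1.49 ± 0.74) and Siglech, a surface lectin gene of these cells (-1.48 ± 0.60). Of 17 NK genes 0 passed higher and 3 lower (median -1.07): Gzma, Fcer1g and Klrd1, which encodes CD94 (-1.33 ± 0.79). Without cells of other lineages the medians of these lists were -0.05 and -0.08. Summed over the list, as log2 of 1 plus the linear levels, the plasmacytoid dendritic genes gave 1.64 to 13.29 (median 7.89) in the chosen and 0 to 16.07 (median 8.01) in the other cells. The NK genes gave 6.29 to 10.56 (median 8.95) and 1.13 to 16.95 (median 9.91). No gene of either list was undetected in all chosen cells, and the part of such cells in the list results was not tested. Of 18 innate lymphoid genes 2 passed higher, the interleukin receptor genes Il1r1 (1.22 ± 0.12) and Il17rb (1.09 ± 0.66), and 0 lower, near the 12.4% called higher over all genes. The list's median was -0.30, with 4 genes positive and 14 negative. Without cells of other lineages it was 0.04, with 12 positive and 6 negative, beside 0.14 over all genes. Against Kit-only cells it was 0.05, with 9 positive and 9 negative, and against Cd34-only cells 0.17, with 13 positive and 5 negative. Il18r1, another such receptor gene, was at -1.14 ± 1.03 and did not pass (adjusted p = 0.0889). Of 8 gamma-delta T genes 1 passed higher, near the 12.4% over all genes. It was Sox13, a factor of these cells (1.76 ± 0.81), while Cd163l1 was at -0.74 ± 0.40 (adjusted p = 0.0728).

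Few genes of the myeloid lists passed, beside 12.4% higher and 0.74% lower over all genes. Among 10 granulocyte-monocyte genes, Mpo and the protease gene Prtn3 (1.54 ± 0.29, adjusted p = 0.0185) passed higher and Irf8 lower, with a list median of -0.04. Cd33, a sialic acid-binding lectin gene, was 1.81 ± 1.41 higher (adjusted p = 0.0532). Of 13 macrophage genes 1 passed, Cd68, which was lower (-0.77 ± 0.10), and lysozyme gene Lyz2 was at 0.85 ± 1.10 (adjusted p = 0.195). Of 11 conventional dendritic genes, Flt3 passed higher and Cd74 lower.

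In the remaining lists few genes passed, beside 12.4% higher and 0.74% lower over all genes. Of 9 mast and basophil genes 1 was lower, the cytokine receptor gene Csf2rb2 (-1.36 ± 0.56), with Cyp11a1 at -0.73 ± 0.51. Of 9 B cell genes 1 was lower, the immunoglobulin gene Ighm (-1.41 ± 0.65), with Blnk at -0.82 ± 0.65. Among erythroid genes the globin gene Hbb-bt was at 0.70 ± 0.80 and did not pass (adjusted p = 0.18). Of 9 thymic stroma genes 1 was lower, the epithelial gene Epcam (-0.88 ± 0.31), with the endothelial gene Pecam1 at 0.43 ± 0.62. Pax5 and Epor, which define B and erythroid cells, were detected in 0 of the 89 cells, which allows detection in up to 3.37% of such cells (3 counts of 89) and sets no limit on the cells that express them. Of 16 immediate early genes 0 passed (Dusp1 0.91 ± 0.47, adjusted p = 0.0507; Nr4a1 0.69 ± 0.33). Of 12 Bcl2 family genes 1 was lower, Bad, a promoter of cell death (-0.87 ± 0.11, adjusted p = 0.0335), with Bcl2l1 at 0.73 ± 0.50.

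**Figure D3:**
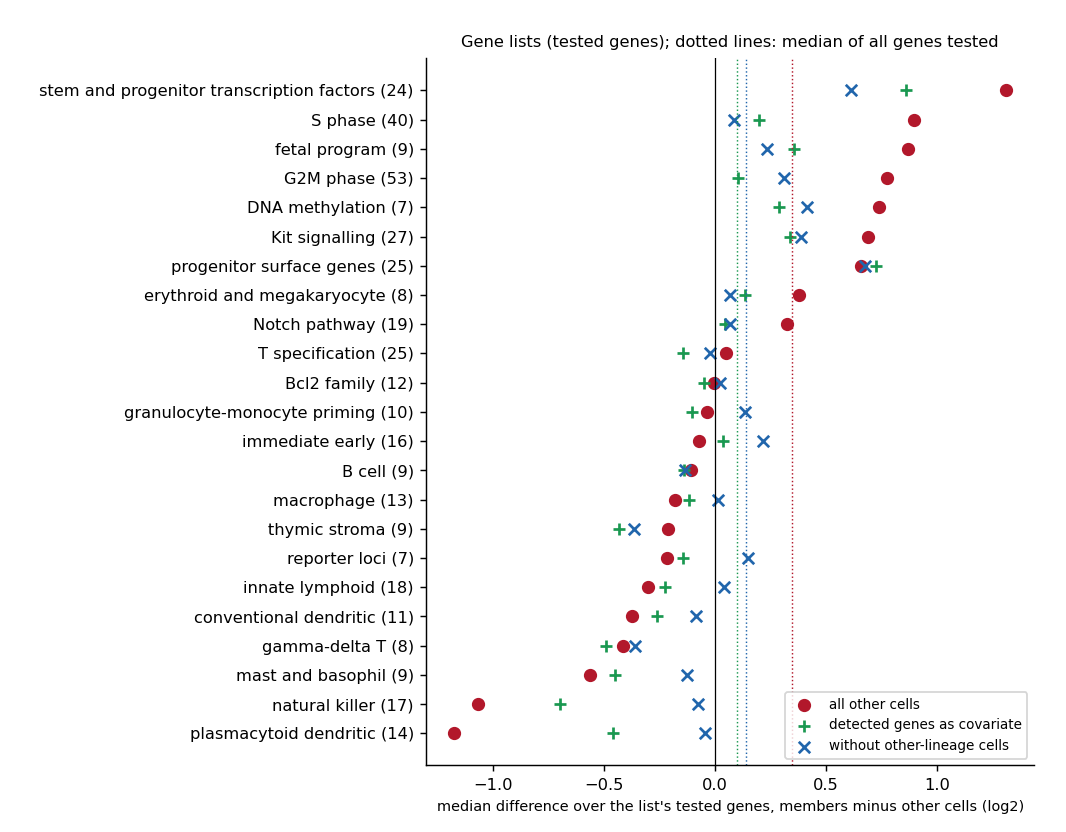
Median difference of each gene list, Kit-high Cd34-high cells minus other cells (x axis, log2), with the number of tested genes in brackets; red points are against all other cells, green crosses with detected genes as covariate and blue crosses without cells of other lineages, and dotted lines give the median of all 12437 genes (0.35, 0.10 and 0.14). Progenitor surface genes stay near 0.7 in the 3 settings, whereas the plasmacytoid dendritic and NK medians go from -1.18 and -1.07 to -0.05 and -0.08 without those cells. The lists were chosen with earlier results of these data known.

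The genes of the reporter loci did not pass in either direction. Gata3, a regulator of T and innate lymphoid development, had mean levels of 5.49, 5.28, 5.43 and 5.55 in the chosen cells against 4.13, 4.52, 5.17 and 4.32 (0.90 ± 0.50, adjusted p = 0.0541). Its means did not overlap, as for 23.3% of all genes tested in this direction. Id2, an inhibitor of E proteins, had 3.47, 3.97, 4.81 and 4.14 against 5.86, 5.58, 5.15 and 3.62. It was lower in 3 mice and higher in 2B (-0.95 ± 1.29, adjusted p = 0.197). Rora, a nuclear receptor gene of innate lymphoid cells, was at -0.22 ± 0.41, and Bcl11b, the T commitment factor gene, at -0.67 ± 0.65 (adjusted p = 0.55 and 0.15). Of the reporter transcripts, tagBFP was detected in 84.3% of the chosen cells and 86.6% of the others, hCD2 in 64% and 58.1%, mTeal in 13.5% and 12.2%, and TdTomato in 1.12% and 6.4%.

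Against cells that were above the median of a single gene, no gene passed the test. With both single-high groups pooled, limma called 0 of 12437 genes (0%; 820 at unadjusted p under 0.05, lowest adjusted p = 0.725). Split by gene after the data were seen, the count was 0 against Kit-only cells (929, lowest 0.149) and 0 against Cd34-only cells (788, lowest 0.751). The genes in the next 2 paragraphs were chosen for the size of these differences, so their values are a description.

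The gene nearest to the threshold was Flt3, the receptor tyrosine kinase gene of multipotent and lymphoid progenitors. Its mean level was 4.56, 4.72, 3.82 and 4.56 in Kit-high Cd34-high cells of mice 1A, 1B, 2A and 2B. In Kit-only cells it was 1.51, 1.18, 0.99 and 0.71, and in Cd34-only cells 4.30, 6.63, 5.65 and 5.08. The chosen cells thus lay 3.32 ± 0.46 above Kit-only cells, higher in 4 of 4 mice (adjusted p = 0.149), and 1.00 ± 1.05 below Cd34-only cells with overlap (adjusted p = 0.794). Csf1r, the receptor gene for the macrophage growth factor, lay between these groups: 4.95, 3.61, 2.91 and 3.38 in the chosen cells, 1.64, 2.11, 0.94 and 1.72 in Kit-only and 6.45, 6.87, 5.02 and 4.69 in Cd34-only cells. The gap was 2.11 ± 0.83 to Kit-only and -2.05 ± 0.88 to Cd34-only cells, of the same sign in 4 of 4 mice each.

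Other genes were highest in Kit-only cells, with the chosen cells in between or level with Cd34-only cells. Tcf7, which encodes the T-cell factor TCF-1, had mean levels of 6.43 ± 1.06 in Kit-only, 5.00 ± 0.97 in the chosen and 4.04 ± 0.79 in Cd34-only cells, and Cpa3, a mast cell and early progenitor protease gene, 7.42 ± 0.61, 5.21 ± 1.33 and 3.60 ± 1.58. Both were lower in the chosen than in Kit-only cells in 4 of 4 mice. The 9 mast and basophil genes tested were all negative in this comparison (median -0.64, 0 passing), and 3 of the 41 Kit-only cells and 1 of the 89 chosen cells carried mast or basophil markers. The part of those cells in the Cpa3 difference was not tested. Il17rb, a receptor gene for interleukin 25, followed the same order at 5.69 ± 0.44, 4.38 ± 0.54 and 2.45 ± 1.30. Gzmb, the granzyme B gene, had 3.91 ± 0.66, 1.71 ± 0.64 and 1.59 ± 0.47, and Tuba8, a tubulin gene, 6.06 ± 0.60, 3.28 ± 0.83 and 2.26 ± 0.37. The T-cell receptor delta constant gene Trdc (3.30 ± 0.46, 1.97 ± 0.49 and 1.69 ± 0.53) and the integrin gene Itga2b (5.02 ± 0.50, 2.77 ± 0.50 and 1.91 ± 0.85) were alike. Smo, the Hedgehog signal transducer, departed from this pattern and was highest in the chosen cells at 5.49 ± 0.64, against 4.56 ± 0.80 and 3.46 ± 1.02, in 4 of 4 mice for each comparison.

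**Figure D4:**
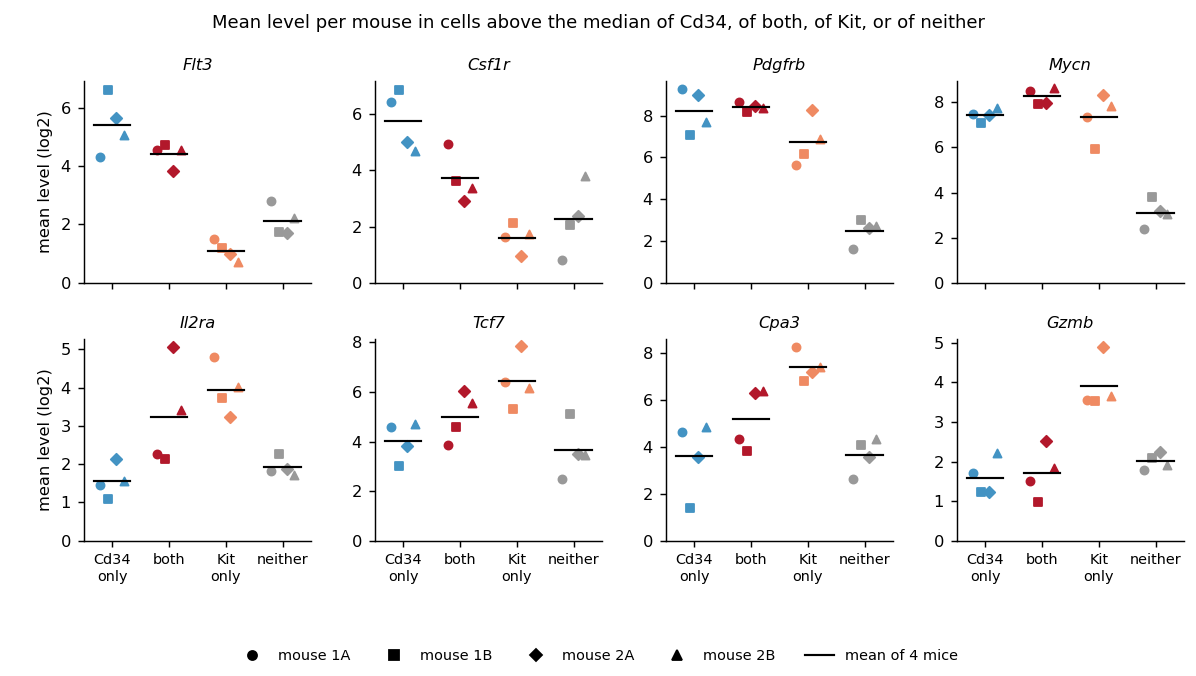
Mean log2 level per mouse (y axis; symbols are mice, bars the mean of 4) of 8 genes in cells above the median of Cd34 only, of both genes, of Kit only or of neither (x axis). Flt3 and Csf1r fall from Cd34-only to Kit-only cells, while Tcf7, Cpa3 and Gzmb are highest in Kit-only cells and Pdgfrb and Mycn are lowest in the cells above neither median.

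The Kit-high Cd34-high cells were less spread than the other cells for many genes. The median standard deviation per gene within mice was 2.16 log2 units among them, 2.48 among the other cells and 2.29 among the other cells without other lineages. For 4339 genes (34.9%) it was lower among the chosen cells in 4 of 4 mice, and for 1941 (15.6%) without other lineages, against 566 and 490 genes with the reverse. The other cells pool the Kit-only, the Cd34-only and the cells above neither median, and pooling unlike groups widens a spread. The chosen cells were not compared with any of these groups alone. The part of this pooling and of the number of detected genes in the spread was not tested. Lck (0.77), Myb (1.19), Mycn (1.33), Pdgfrb (1.5) and Nfe2 (1.56) were even from cell to cell.

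Flt3 was among the genes that divided the chosen cells most, with a standard deviation of 3.62 within mice, the fifth largest. Of the 40 most variable genes, 8 belonged to the G2M list and 1 to the S phase list, with Plk1 (3.92), Kif20a (3.82) and Aurkb (3.71), all mitotic genes, at the top. At a linear level of at least 10, Flt3 was found in 50 of the 89 cells (56.2%) and Il2ra, the interleukin 2 receptor alpha gene that marks later stages, in 38 (42.7%). Both were found in 14 cells, Flt3 alone in 36, Il2ra alone in 24 and neither in 15. The share with both was 15.7%, and the product of the single shares was 24%. By mouse, both were found in 13.6, 8.33, 21.1 and 20.8% of the chosen cells of 1A, 1B, 2A and 2B, against products of 18.8, 16.7, 32.4 and 25%, lower in 4 of 4 mice. Pooled over mice, the share with both was below the product in the other groups as well. It was 4.88 against 6.84% in Kit-only, 9.76 against 13.3% in Cd34-only and 3.33 against 3.99% in cells above neither median. Within those groups the order differed between mice. In Kit-only cells Flt3 reached this level in 12.2% and Il2ra in 56.1%, and in Cd34-only cells in 68.3% and 19.5%. Mouse 2A had the highest mean level of Il2ra in the chosen cells, at 5.06, and 1B the lowest, at 2.15.

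**Figure D5:**
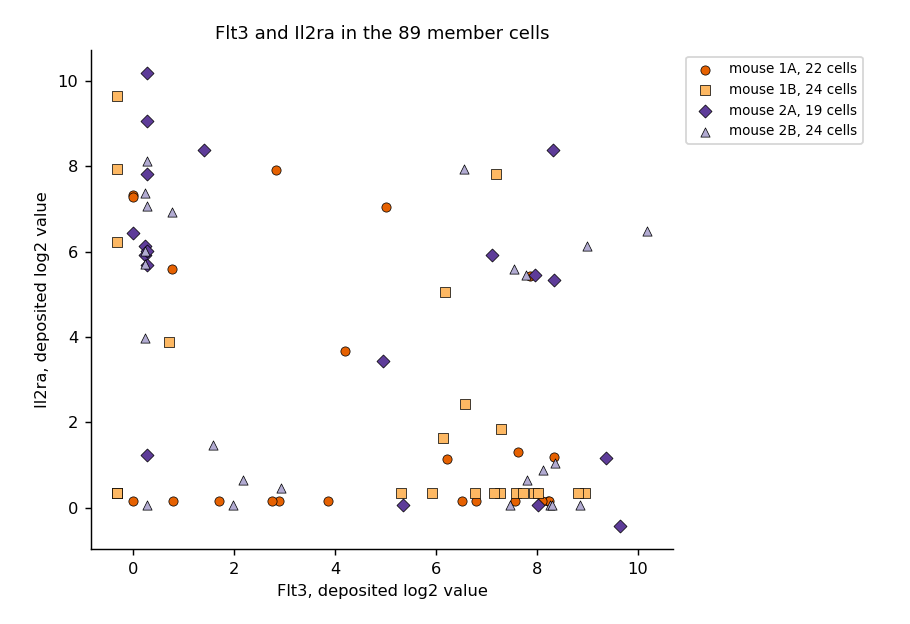
Deposited log2 values of Flt3 (x axis) and Il2ra (y axis) in the 89 Kit-high Cd34-high cells; each point is a cell and symbols and colours give the 4 mice. Most cells lie along one of the axes, with 36 cells high in Flt3 alone, 24 in Il2ra alone and 14 high in both.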

How the data were processed

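The files hold 1 deposited matrix of log2 expression values for 13737 features in all analysed cells, batch-corrected by the authors per the labels; the submitters' processing notes name Salmon and GRCm38, with no version, and the sources used here name neither the normalization nor the correction tool. Repeated lowest values showed 4 sets of cells, and that value was taken as the level at no reads, with detection above it by 1e-06. Read depth is unknown, and no doublet caller was run. Levels are mean log2 values. Within each of the 4 labelled mouse ids the mean of the compared cells was subtracted from that of the Kit-high Cd34-high cells, and the 4 differences were tested with limma 3.58.1 (R 4.3.3; moderated test, Benjamini-Hochberg adjustment) over 12437 genes detected in at least 10% of cells, leaving out Kit and Cd34. The script was tested on simulated data. Other lineages were cells with at least 60% of the genes of a marker list at a linear level of 10 or more. Symbols came from GENCODE M21 (13578 features matched). Values were handled in Python 3.11.15 (numpy 2.4.6, pandas 2.3.3, scipy 1.17.1, matplotlib 3.10.9).

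Genes were to be named when they passed at an adjusted p of 0.05 with 1 sign in 4 mice, also with detected genes and plate as covariates, and 0 genes met this. The 12 largest in each direction were therefore taken from the 1544 genes that met the rule without the p of the covariate fit, a step chosen after the values were seen. The genes of largest difference in each of 23 lists, the markers and the reporter loci were named too. The members and lists were chosen with earlier results of these data known. Alternatives covered covariates, filters, scaling, summaries and each mouse or lineage left out. One more reporter locus is left out.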

Additional observations from a re-analysis of the deposited data

Results flagged for a closer look

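Of 32 sets of 4 mouse values examined, 2 had a mouse far from the others, and chance passes this 95% critical value of Dixon's ratio in about 5% of groups. The difference of Pdgfrb between Kit-high Cd34-high and other cells was 4.35 in mouse 1A and 3.27 to 3.35 in the other 3 mice. The difference of Bcl11b was -1.62 in mouse 2B and -0.46 to -0.24 in the other 3.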

How the results depend on the processing

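Against all other cells, 1539 genes were higher and 92 lower. Limma called 0 higher and 0 lower with detected genes as covariate, with detected genes and plate, without cells of other lineages (also with both covariates, or with medians taken over the remaining cells) and without the first 8 wells. The counts were 32 and 0 with a mean-variance trend, 612 and 40 with mice 2A and 2B joined, and 863 higher with a larger pseudocount. Leaving out each mouse gave 0 to 620 higher and 0 to 57 lower. The cause was not tested. The difference in detected genes was 238.2 with cells of other lineages left out of both groups and 532 to 739 leaving out each mouse. The mitochondrial difference was -0.0124 percentage points in that setting, against 0.319 to 0.523 leaving out each mouse.

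Some named genes changed sign. Without cells of other lineages Adgre5 was at 0.012, Cd68 at 0.12, Csf2rb2 at 0.090 and Ighm at 0.24. With both covariates as well, Adgre5 was at 0.022, Ahnak 0.019, Cd68 0.27, Csf2rb2 0.17, Igf2bp3 -0.031, Ighm 0.24 and Il17rb -0.12. With medians over the remaining cells, Cd68 was at 0.15, Csf2rb2 0.016, Ighm 0.10, Il17rb -0.11, Irf8 0.025 and Nrarp -0.33. The comparison was paired by mouse, since cells were compared within each mouse, except where sets of cells took the place of mice. Read depth is unknown, so for genes detected in few cells, such as Bcl11b and Cd3e, an absent transcript and a missed one cannot be told apart.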
